A study of Mus musculus with 9 samples.

Results

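Immediate early genes are transcribed within minutes of a stimulus without prior protein synthesis. The set described here has 10 of them, chosen by symbol: the AP-1 genes Fos, Fosb and Junb, the EGR genes Egr1 and Egr3, the effector Arc, the neuronal factor Npas4, and the nuclear receptors Nr4a1, Nr4a2 and Nr4a3. All 10 were found among the 38926 genes counted in every library. The tissue was whole lumbar dorsal root ganglion, the cluster of sensory neuron cell bodies and their glia beside the spinal cord, from levels L3 to L5 of the injected side. All mice were male C57BL/6 mice with no engineered allele, aged 8 to 10 weeks, and received vehicle, cisplatin or oxaliplatin, each drug injected into the paw to a cumulative 40 µg. Each group had 3 libraries of stranded total RNA, read as single ends of 75 nucleotides, and each library pooled the ganglia of 4 animals, so the spread between single animals was not measured. The labels give neither the number of injections nor the time from the last one to dissection, and a transcript of this kind is read here at 1 unstated time.

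In sensory neurons, calcium entry and receptor signalling activate kinases that phosphorylate CREB and the partners of SRF, and these factors, already bound to DNA, switch the immediate early genes on. FOS and JUN proteins pair to form AP-1, the EGR proteins are zinc-finger factors that bind GC-rich sites, and the NR4A proteins are orphan nuclear receptors that act without a known physiological ligand. Their transcripts are short-lived, and they are also induced in glia, endothelium and leukocytes, so a whole-ganglion level is not that of neurons alone.

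Stretches of DNA just before the start of immediate early genes can carry the elements through which CREB acts. Those of the 3 NR4A genes and of Fos are shown. They were chosen after the results were seen, each NR4A gene being called lower after both drugs and Fos not passing the test. RefSeq windows of 250 bases before the start were at hand for 7 of the 10 genes (Fos, Fosb, Junb, Npas4, Nr4a1, Nr4a2 and Nr4a3; mouse build GRCm38.p6). The sequences are written 5′ to 3′ on the strand of the gene, and capitals mark the half-site of the cyclic AMP response element (CRE), TGACG on either strand. Of the Nr4a3 window, only the 98 bases that lie before the first exon of the GENCODE M21 annotation are printed.
Nr4a1 (chr15:101266596-101266845, forward strand): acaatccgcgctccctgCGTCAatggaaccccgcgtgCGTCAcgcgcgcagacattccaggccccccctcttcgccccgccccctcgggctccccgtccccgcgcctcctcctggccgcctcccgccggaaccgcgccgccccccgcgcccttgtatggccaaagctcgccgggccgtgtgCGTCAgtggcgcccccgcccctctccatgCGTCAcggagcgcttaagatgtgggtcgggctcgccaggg
Nr4a2 (chr2:57124004-57124253, reverse strand): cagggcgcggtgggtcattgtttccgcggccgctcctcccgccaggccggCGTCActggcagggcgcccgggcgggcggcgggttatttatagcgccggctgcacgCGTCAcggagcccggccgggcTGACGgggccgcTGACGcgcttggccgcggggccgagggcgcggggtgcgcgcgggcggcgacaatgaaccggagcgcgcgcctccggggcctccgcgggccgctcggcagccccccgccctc
Nr4a3 (chr4:48045055-48045152, forward strand): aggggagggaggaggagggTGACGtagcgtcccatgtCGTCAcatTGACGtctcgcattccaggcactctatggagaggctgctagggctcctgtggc
Fos (chr12:85473640-85473889, forward strand): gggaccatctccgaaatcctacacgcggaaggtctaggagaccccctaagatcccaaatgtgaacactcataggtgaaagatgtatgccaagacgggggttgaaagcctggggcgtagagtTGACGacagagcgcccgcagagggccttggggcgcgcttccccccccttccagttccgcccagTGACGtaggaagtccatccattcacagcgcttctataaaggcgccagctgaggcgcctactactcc
Nr4a1 and Nr4a2 each held 4 half-sites in the stretch printed, Nr4a3 held 3 there, and Fos held 2. Over the whole window of 250 bases Nr4a3 also had 4, at 231, 213, 205 and 147 bases before the start. In Nr4a1 they began 233, 213, 69 and 40 bases before the start, and in Nr4a2 200, 144, 123 and 111 bases before it. The 2 half-sites of Fos lay at 129 and 66 bases, Npas4 had 2, and Fosb and Junb had 1 each. The whole Npas4 window lies within an annotated GENCODE exon of that gene, which starts farther upstream there than in RefSeq. At least 1 half-site was found in 17.77% of 32851 RefSeq windows of the same length, and at least 4 in 0.14%. Those windows were not matched for GC content, which was 74.4% for Nr4a1, 80.0% for Nr4a2, 63.6% for Nr4a3 and 58.4% for Fos. The full palindromic element TGACGTCA occurred in none of the 7 windows and in 1.55% of all windows; where present, it overlaps 2 half-sites. The EGR site GCGGGGGCG was matched once in Nr4a1 and once in Fosb (2.57% of all windows), and the TATA box letters TATAAA once in Fos, 33 bases before the start, and once in Nr4a2, 164 bases before it (12.37%). The AP-1 site TGACTCA (4.46%), the NR4A monomer site AAAGGTCA (1.34%) and the CArG box bound by SRF (1.47%) were not matched in these windows. All were searched on both strands. Sequence farther than 250 bases before the start was not searched, so a motif without a match here may still lie there. A match is a match of letters, not a measured binding site, and no binding was measured in these samples. Any link between these matches and the fold changes below was not tested.

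**Figure D1:**
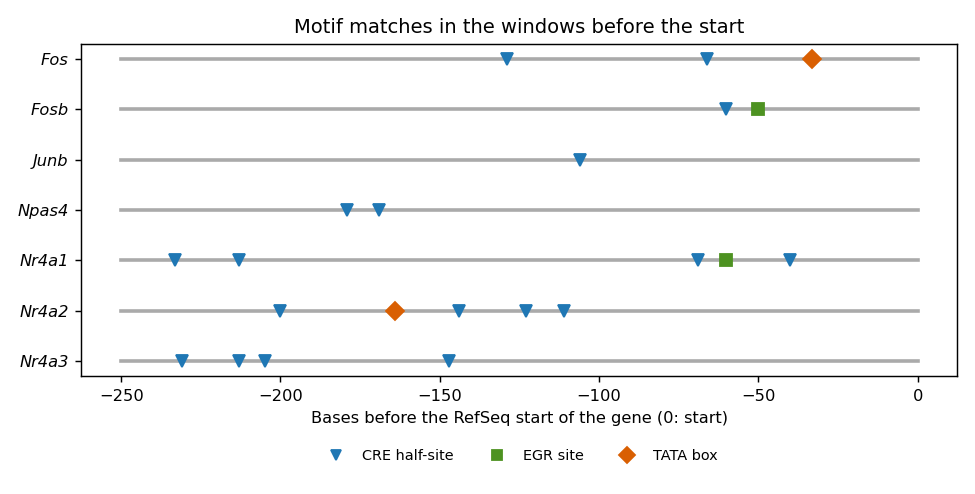
Matches to 3 motifs in the window of 250 bases before the RefSeq start of each of the 7 genes with an entry; the horizontal axis is the distance in bases before the start, and each symbol is 1 match on either strand. Nr4a1, Nr4a2 and Nr4a3 have 4 CRE half-sites each, and the other 4 genes have 1 or 2; the Npas4 window lies within a GENCODE exon.

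Total reads assigned to genes ran from 22819185 to 38808509 per library. Vehicle library 2 stood apart, with the lowest total, 51.0% of its recorded reads multiply aligned (25.9 to 33.8% in the other 8 libraries), 32.9% of its gene reads in 10 genes, and a TMM scaling factor of 0.700 (0.960 to 1.10 in the others). Of uniquely aligned reads, 26.2 to 47.7% fell outside genes in the vehicle libraries, 18.6 to 19.1% after cisplatin and 16.6 to 17.8% after oxaliplatin. Markers of the labelled tissue were abundant: the summed level of 14 pan-neuronal and sensory neuron genes was 20761 to 21991 CPM (reads per 1000000 of the TMM-adjusted library total) with vehicle, 18865 to 21248 after cisplatin and 19823 to 20863 after oxaliplatin. Nefl was the largest part of that sum, with group means of 5839, 5883 and 5976 CPM. Single genes went both ways: Scn10a had means of 1291, 804 and 891 CPM, and Calca 1254, 1635 and 1636. Of the 14, 1 was called higher and 5 lower in each comparison. Of all genes tested, 15.8% were higher and 22.9% lower after cisplatin, and 17.5% and 24.1% after oxaliplatin. With library totals in place of TMM factors, 2 and 3 of the 14 were higher and 0 lower. Markers of several other cell types differed between the groups, though not every list did. The summed level of 8 neutrophil genes was 40.8 to 96.7 CPM with vehicle, 162 to 259 after cisplatin and 83.6 to 196 after oxaliplatin. That of 7 erythroid genes was 40.4 to 57.6, 101 to 218 and 86.4 to 211 CPM, that of 8 endothelial genes 84.3 to 105, 129 to 168 and 139 to 150 CPM, and that of 8 macrophage genes 81.7 to 112, 122 to 149 and 129 to 141 CPM. Of the 8 genes of myelinating Schwann cells, 8 were called higher after cisplatin and 4 after oxaliplatin (6 and 2 with a trend with GC content and length removed), beside 15.8% and 17.5% of all genes. Of 8 satellite glia genes, 2 were called higher and 2 lower after cisplatin, and 1 higher and 2 lower after oxaliplatin. Kcnj10 had means of 60.1, 35.5 and 31.0 CPM with vehicle, cisplatin and oxaliplatin, and Apoe 1837, 2234 and 2430. Of 8 pericyte and smooth muscle genes, 4 and 5 were called higher, of 8 fibroblast genes 7 and 5, and none lower. Of 7 skeletal muscle genes, 0 were called in either comparison. No gene of any of these lists was at 0 in any library, whereas 3 of 8 spinal cord markers (Mog, Olig2 and Chat) were at 0 in at least 1. The rest of those 8 were present. Means with vehicle, cisplatin and oxaliplatin were 120, 90.1 and 88.0 CPM for Slc17a7, and 18.5, 15.2 and 15.3 for Aqp4. They were 2.40, 9.49 and 4.42 CPM for Mobp, 1.71, 1.73 and 1.50 for Gfap, and 1.05, 1.03 and 0.958 for Gad1. The 8 summed to 138 to 151, 113 to 125 and 110 to 112 CPM. Slc17a7 made up most of that sum in each group, so the sum mainly follows Slc17a7 and is not read as a measure of spinal cord tissue. Of the 5 that could be tested, 1 was called higher and 2 lower after cisplatin, and 0 and 2 after oxaliplatin. The share of unique reads outside genes was higher in every vehicle library than in any drug library. The part of that share, of cell makeup, of depth and of vehicle library 2 in the results below was not tested beyond the values given without that library.

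Junb was the most abundant of the set per length of transcript and Npas4 the least. On the scale of CPM per kilobase of exon, the means over all 9 libraries were 7.90 for Junb, 5.10 for Nr4a1, 2.59 for Fos, 1.77 for Egr1, 1.67 for Nr4a2, 1.03 for Arc, 0.213 for Egr3, 0.178 for Nr4a3, 0.0803 for Fosb and 0.0294 for Npas4. Within a library, Junb exceeded Nr4a1, Nr4a1 exceeded Fos, Nr4a2 exceeded Arc, Arc exceeded Egr3 and Fosb exceeded Npas4 in 9 of 9 libraries. Fos exceeded Egr1 in 8 of 9, Egr3 exceeded Nr4a3 in 7 of 9 (the exceptions were vehicle libraries 1 and 2, and the vehicle mean of Nr4a3, 0.358, lay above that of Egr3, 0.290) and Nr4a3 exceeded Fosb in 6 of 9. Egr1 exceeded Nr4a2 in only 5 of 9 libraries, so the order of these neighbours was not settled by their spread. The values of Arc and Egr3, and those of Fosb and Npas4, did not overlap over the 9 libraries. Fitted over the groups together, the biological coefficient of variation was 29.0% for Nr4a3, 27.6% for Fos and 19.9% for Egr1. These values lay above those of 98.9%, 98.6% and 95.7% of all genes tested, and that of Nr4a2 was 8.44%. For Fos and Egr1 the spread was widest in the vehicle group. Their SD over mean was 67.0% and 42.7% with vehicle, 8.81% and 6.01% after cisplatin, and 21.4% and 16.1% after oxaliplatin. For Nr4a3 it was 45.4% with vehicle, 26.5% after cisplatin and 50.5% after oxaliplatin.

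**Figure D2:**
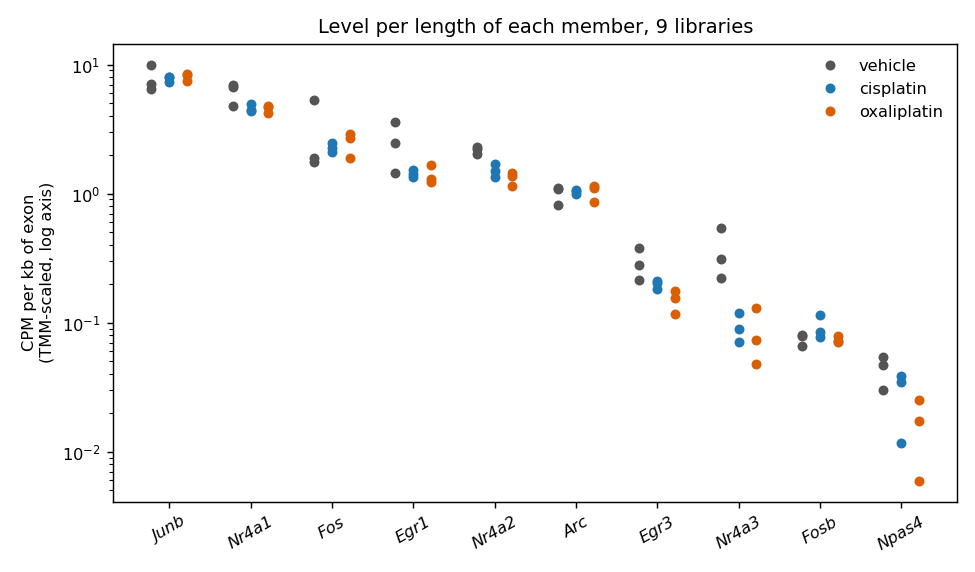
Level per length of the 10 genes (vertical axis: CPM per kilobase of exon, TMM-scaled, log axis), with 1 point for each of the 9 libraries, coloured by group. Junb and Nr4a1 lie highest and Npas4 lowest, and Nr4a3 is the gene whose vehicle points lie clear above those of both drugs by the widest margin.

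The first comparison asked which of these genes differed between ganglia of cisplatin-treated and vehicle-treated mice, and 4 of the 9 that could be tested fell: Nr4a1, Nr4a2, Nr4a3 and Egr1. None rose. Over all 17348 genes tested, 38.7% were called at an adjusted p under 0.05 (edgeR quasi-likelihood test, Benjamini-Hochberg), 15.8% higher and 22.9% lower, so a count of 4 in 9 is no result about the set as a whole. The median log2 fold change of the 9 was −0.40, beside 0.00 over all genes tested. After oxaliplatin 5 of the 9 fell, the same 4 and Egr3, and none rose, with 41.6% of all genes called, 17.5% higher and 24.1% lower; the median was −0.41, again beside 0.00. These counts depended on single libraries. Without vehicle library 2 they were 3 lower for cisplatin, and 3 lower and 2 higher (Fos and Junb) for oxaliplatin. Without vehicle library 1 they were 2 and 3, all lower; the cisplatin count was also 2 without cisplatin library 1 or 2, and the oxaliplatin count 3 without oxaliplatin library 1. The cisplatin and oxaliplatin comparisons share their 3 vehicle libraries, so the likeness of the 2 lists is not independent evidence. In this bulk tissue, fewer cells of a type and less RNA per cell cannot be told apart. Neither can be told apart from the share of unique reads outside genes, which differed between vehicle and drug libraries.

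**Figure D3:**
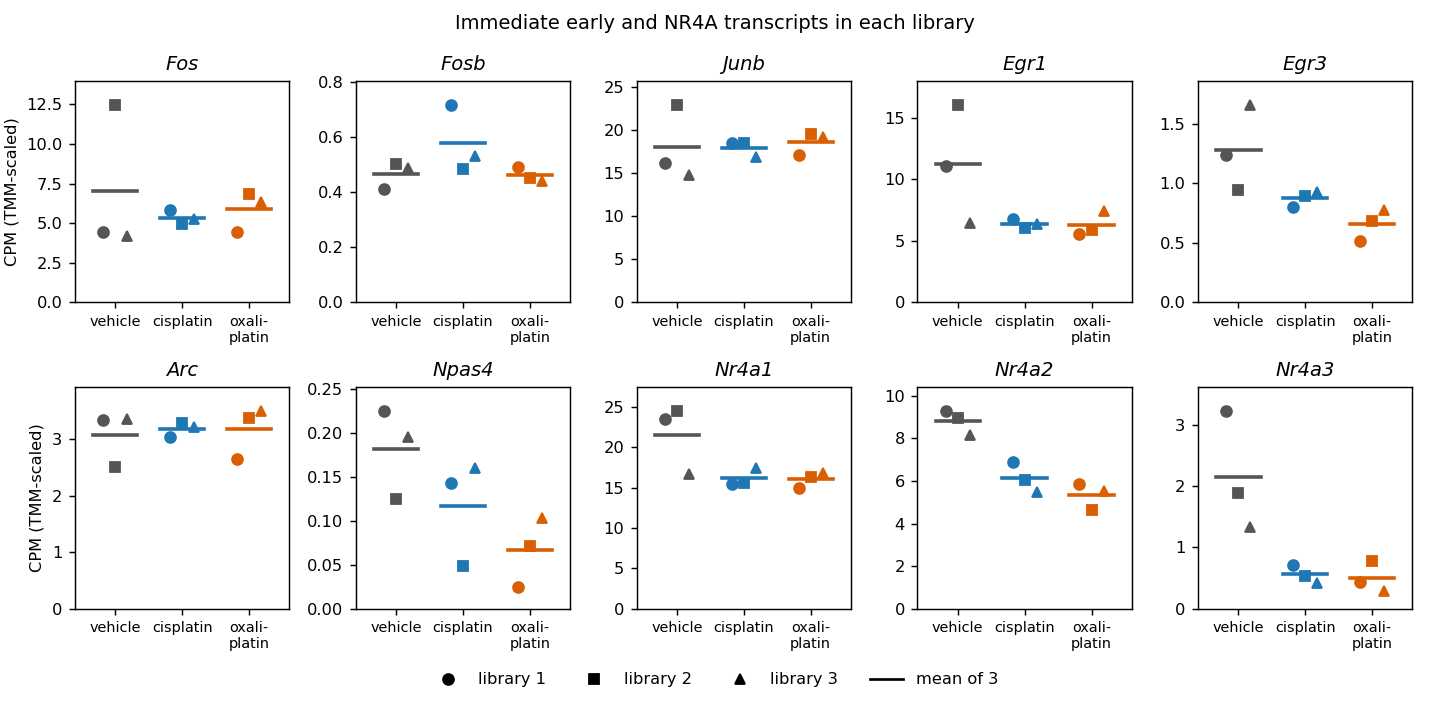
Level of each of the 10 genes in every library (vertical axis: CPM, TMM-scaled, from 0), by group; symbols mark the library number, which does not pair libraries across groups, and bars mark the mean of 3. Nr4a2, Nr4a3 and Egr3 are lower in all 6 drug libraries than in any vehicle library, though for Egr3 vehicle library 2 and cisplatin library 3 nearly coincide. Vehicle library 2 lies far above the others for Fos.

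Nr4a3 (ENSMUSG00000028341, chr4:48045153-48086447 of GRCm38, forward strand), also called NOR-1, showed the steepest fall of the set. Its level in the vehicle libraries was 3.22, 1.88 and 1.33 CPM, from 86, 30 and 41 reads. After cisplatin it was 0.717, 0.530 and 0.425 CPM, and after oxaliplatin 0.442, 0.782 and 0.285 CPM, from 11 to 33 reads in these 6 libraries. Every drug library lay below every vehicle library, and the vehicle libraries themselves differed widely. The mean was 2.15 ± 0.973 CPM (SD, n = 3) with vehicle, 0.558 ± 0.148 after cisplatin and 0.503 ± 0.254 after oxaliplatin. The log2 fold change was −1.95 (SE 0.38, 95% interval −2.78 to −1.11, adjusted p = 0.00199) for cisplatin and −2.07 (SE 0.38, −2.91 to −1.24, adjusted p = 0.00124) for oxaliplatin. Of all genes tested, 0.184% had a lower fold change after cisplatin and 0.231% after oxaliplatin. Leaving out vehicle library 1, the highest, gave −1.46 (adjusted p = 0.0170) and −1.59 (adjusted p = 0.0106).

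Nr4a2 (ENSMUSG00000026826, chr2:57106830-57124003, reverse strand), also called NURR1 and needed for dopamine neurons to develop, fell by less but with little spread between libraries. It stood at 9.30, 8.96 and 8.16 CPM with vehicle, at 6.88, 6.03 and 5.50 after cisplatin, and at 5.85, 4.62 and 5.54 after oxaliplatin. The groups did not overlap: the lowest vehicle library lay above the highest drug library. The log2 fold change was −0.52 (SE 0.11, −0.77 to −0.27, adjusted p = 0.00389) for cisplatin and −0.72 (SE 0.11, −0.97 to −0.47, adjusted p = 0.000479) for oxaliplatin. When library totals replaced the TMM factors, which moved the median of all genes to 0.29 and 0.30, the values were −0.23 (adjusted p = 0.251) and −0.42 (adjusted p = 0.0267); relative to those medians they were −0.52 and −0.72.

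Nr4a1 (ENSMUSG00000023034, chr15:101254269-101274795, forward strand), also called NUR77, is the most abundant of the family here and a rapid target of calcium and growth factor signals. Its stretch shown above starts within the annotated gene, in an intron of a longer transcript. Levels were 23.4, 24.5 and 16.6 CPM with vehicle, 15.4, 15.6 and 17.4 after cisplatin, and 14.9, 16.3 and 16.8 after oxaliplatin. Vehicle libraries 1 and 2 were high, and vehicle library 3 lay among the drug libraries, so the groups overlapped. The log2 fold change was −0.40 (SE 0.12, −0.67 to −0.13, adjusted p = 0.0219) for cisplatin and −0.41 (SE 0.12, −0.68 to −0.15, adjusted p = 0.0174) for oxaliplatin. Neither call held without vehicle library 2 (−0.29, adjusted p = 0.0839, and −0.30, adjusted p = 0.0712) or without vehicle library 1 (−0.30, adjusted p = 0.124, and −0.31, adjusted p = 0.107). With library totals the values were −0.10 in both (adjusted p = 0.601 and 0.604), which relative to the shifted medians of all genes is −0.39 and −0.40. Leaving out cisplatin library 1 or 2 also ended the cisplatin call (adjusted p = 0.0692 and 0.0721), and leaving out oxaliplatin library 1 the oxaliplatin call (adjusted p = 0.0638).

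Taken per length, the NR4A family summed to 8.66 ± 1.46 CPM per kilobase (SD, n = 3) with vehicle, 6.21 ± 0.193 after cisplatin and 5.96 ± 0.222 after oxaliplatin. Nr4a3 made up 4.05 ± 1.40% of that sum with vehicle, 1.50 ± 0.409% after cisplatin and 1.42 ± 0.728% after oxaliplatin, and its lowest vehicle share, 3.19%, lay above its highest drug share, 2.21%. Nr4a2 held 25.4, 24.4 and 22.1% on average, and Nr4a1 70.6, 74.1 and 76.5%. This share is taken within a library and so does not depend on how libraries were scaled. The exact permutation p (two-sided) for the Nr4a3 share and for the family sum was 0.1 against vehicle for each drug, the smallest that 3 libraries against 3 allow (adjusted p = 0.24 over 12 tests).

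Egr1, a zinc-finger factor induced by growth factors and neuronal activity, fell in both comparisons on the strength of 2 vehicle libraries. Its levels were 11.1, 16.0 and 6.47 CPM with vehicle, 6.80, 6.03 and 6.38 after cisplatin, and 5.53, 5.85 and 7.41 after oxaliplatin. Vehicle library 3 lay within the range of the drug libraries. The log2 fold change was −0.76 (SE 0.24, −1.29 to −0.23, adjusted p = 0.0262) for cisplatin and −0.79 (SE 0.24, −1.32 to −0.27, adjusted p = 0.0201) for oxaliplatin. Without vehicle library 2 it was −0.43 (adjusted p = 0.0981) and −0.46 (adjusted p = 0.0760), and without vehicle library 1 −0.72 (adjusted p = 0.0859) and −0.75 (adjusted p = 0.0706). Leaving out any 1 cisplatin library (adjusted p = 0.0511, 0.0785 and 0.0578) or oxaliplatin library 1 or 2 (0.0598 and 0.0620) also ended the call, as did limma-voom for cisplatin (−0.61, adjusted p = 0.0631).

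Egr3 (ENSMUSG00000033730, chr14:70077203-70082614, forward strand), a related factor known for its need in muscle spindle development, was 1.24, 0.940 and 1.66 CPM with vehicle. It was 0.803, 0.892 and 0.931 CPM after cisplatin and 0.516, 0.687 and 0.777 after oxaliplatin. The 3 groups did not overlap, with vehicle highest and oxaliplatin lowest, and the counts were low, 15 to 51 reads with vehicle. Vehicle and cisplatin were barely apart: 0.940 CPM from 15 reads in vehicle library 2 against 0.931 CPM in cisplatin library 3. In vehicle library 2, 3 reads amount to 0.188 CPM, so this separation is within counting error. The oxaliplatin change was −1.0 (SE 0.24, −1.53 to −0.47, adjusted p = 0.00616). The cisplatin change of −0.59 (SE 0.23, −1.10 to −0.08) did not pass (adjusted p = 0.0646), though it did without vehicle library 2 (−0.71, adjusted p = 0.0305). Passing in 1 comparison and not in the other does not show that the drugs differ, and the test of that difference is given further on.

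The AP-1 genes of the set, Fos, Fosb and Junb, did not pass in either comparison with TMM scaling and all libraries. Fos (ENSMUSG00000021250, chr12:85473890-85477273, forward strand) stood at 4.46, 12.5 and 4.16 CPM with vehicle, 5.85, 4.92 and 5.26 after cisplatin, and 4.45, 6.82 and 6.35 after oxaliplatin. Vehicle library 2 lay far above the rest; the other vehicle libraries lay below all 3 cisplatin libraries. With all libraries the log2 fold change was −0.30 (SE 0.33, −1.02 to 0.42, adjusted p = 0.503) for cisplatin and −0.16 (SE 0.33, −0.88 to 0.55, adjusted p = 0.722) for oxaliplatin. Without vehicle library 2 the sign turned, to 0.33 (adjusted p = 0.164) for cisplatin and to 0.47 (adjusted p = 0.0497) for oxaliplatin, so sign and size changed with that library. With it kept, the oxaliplatin value also lay above 0 without oxaliplatin library 1 (0.04, adjusted p = 0.934) and with limma-voom (0.07, adjusted p = 0.868). With library totals it was 0.03 (adjusted p = 0.883) for cisplatin and 0.19 (adjusted p = 0.362) for oxaliplatin. Relative to the shifted medians of all genes these are −0.26 and −0.12, so no direction is given for Fos.

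Junb (ENSMUSG00000052837, chr8:84974484-84978718, reverse strand), the JUN partner that often restrains AP-1, was 16.2, 22.9 and 14.8 CPM with vehicle, 18.4, 18.5 and 16.8 after cisplatin, and 17.1, 19.6 and 19.2 after oxaliplatin. Here too vehicle library 2 was the highest of all 9. The log2 fold change was 0.02 (−0.26 to 0.30, adjusted p = 0.915) for cisplatin and 0.08 (−0.20 to 0.36, adjusted p = 0.662) for oxaliplatin. Without vehicle library 2 the values were 0.23 (adjusted p = 0.0579) and 0.28 (adjusted p = 0.0212), and with library totals 0.33 (adjusted p = 0.0641) and 0.40 (adjusted p = 0.0233), which relative to the shifted medians is 0.04 and 0.10. Of its 2301 exon bases, 7.5% are shared with Prdx2 on the other strand, and how the counting treated strand is not stated, so its count is uncertain to that extent. Fosb (ENSMUSG00000003545, chr7:19302696-19310051, reverse strand), whose truncated protein builds up with repeated stimulation, was near the limit of use at 8 to 25 reads per library. It ranged from 0.412 to 0.501 CPM with vehicle, 0.482 to 0.717 after cisplatin and 0.440 to 0.491 after oxaliplatin, and the log2 fold changes of 0.30 (−0.28 to 0.88) and −0.01 (−0.60 to 0.58) did not pass (adjusted p = 0.439 and 0.988).

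Arc (ENSMUSG00000022602, chr15:74669083-74672570, reverse strand), a synaptic protein that promotes the internalisation of AMPA receptors, was 3.34, 2.51 and 3.35 CPM with vehicle, 3.04, 3.28 and 3.22 after cisplatin, and 2.65, 3.36 and 3.50 after oxaliplatin. The groups overlapped throughout. Its log2 fold change was 0.03 for cisplatin (−0.29 to 0.35, adjusted p = 0.897) and 0.02 for oxaliplatin (−0.29 to 0.34, adjusted p = 0.914). Npas4 (ENSMUSG00000045903, chr19:4984355-4990316, reverse strand), a factor induced in neurons by calcium entry, was under the filter on low counts and was not fitted by edgeR. It had 6, 2 and 6 reads with vehicle, 5, 2 and 6 after cisplatin and 1, 3 and 4 after oxaliplatin. These counts lie around the floor of 3 reads, so no fold is given. The exact permutation p (two-sided) of its CPM was 0.3 for cisplatin and 0.1 for oxaliplatin against vehicle, the latter the smallest possible, and 0.4 between the drugs.

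Counted by overlap alone, 3 of the 10 genes were lower in all cisplatin libraries than in all vehicle libraries (Egr3, Nr4a2 and Nr4a3), and none was higher. For Egr3 the gap was within counting error. Of all genes tested, 48% did not overlap, 26.7% lower and 21.3% higher. For oxaliplatin it was 4 lower (the same 3 and Npas4, at its few reads) and none higher, beside 50.5% of all genes, 27.4% lower and 23.1% higher. The relative spread between libraries (SD over mean) was widest in the vehicle group for 6 of the 9 tested genes, and vehicle library 2 was the highest of all 9 libraries for 4 of them.

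**Figure D4:**
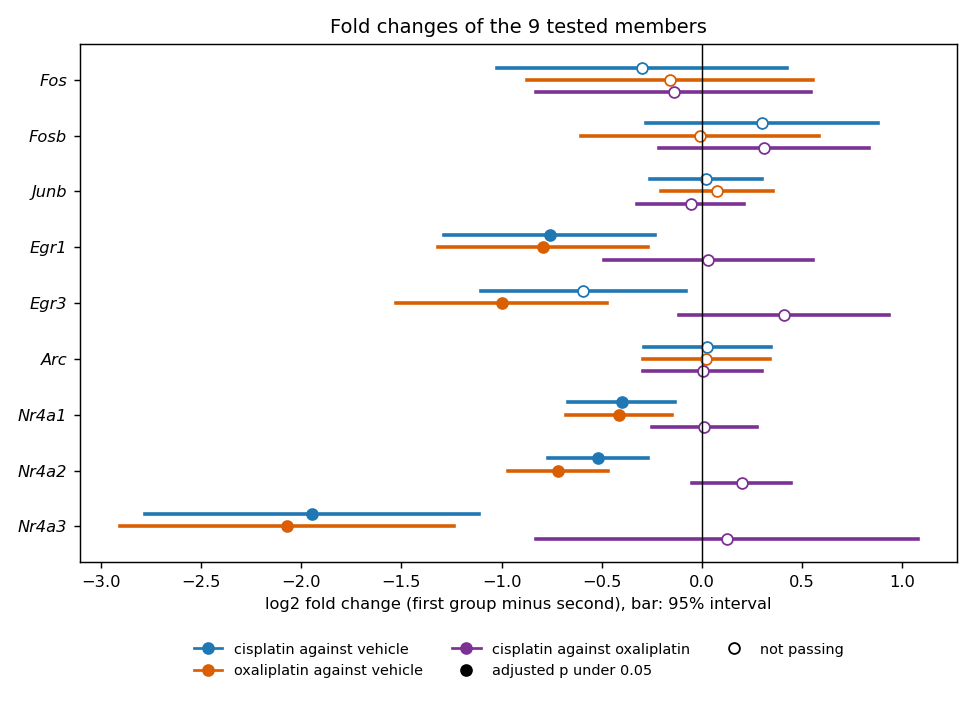
Log2 fold change of the 9 tested genes in the 3 comparisons (horizontal axis: first group minus second, bars: 95% intervals); filled points have an adjusted p under 0.05. Nr4a3, Nr4a2, Nr4a1 and Egr1 have filled points against vehicle for both drugs, Egr3 for oxaliplatin, and no point of cisplatin against oxaliplatin is filled.

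Cisplatin and oxaliplatin are platinum(II) drugs that bind DNA in the same manner; cisplatin carries ammine and chloride ligands, whereas oxaliplatin carries a diaminocyclohexane carrier and an oxalate leaving group. They were compared at the same cumulative 40 µg, which is a matched mass and not a matched number of molecules. None of the 9 tested genes passed between the drugs with edgeR (lowest adjusted p = 0.792, and 0 at an unadjusted p under 0.05), and limma-voom and DESeq2 also called 0. Of all genes tested 0.0115% were called, 2 genes in number. The values nearest to a difference were those of Nr4a2, at 0.20 on the log2 scale (cisplatin minus oxaliplatin, −0.05 to 0.45, adjusted p = 0.792), and of Egr3, at 0.41 (−0.11 to 0.93, adjusted p = 0.798). Egr3 was the 1 gene of the 10 whose drug groups did not overlap, higher after cisplatin, beside 14.1% of all genes tested, 8.04% higher and 6.1% lower (exact permutation p = 0.1, two-sided). The difference was 0.31 for Fosb (−0.21 to 0.83), 0.12 for Nr4a3 (−0.83 to 1.08), 0.03 for Egr1 (−0.49 to 0.55) and −0.14 for Fos (−0.83 to 0.55). For Nr4a1 it was 0.01 (−0.25 to 0.27), for Arc 0.00 (−0.29 to 0.30) and for Junb −0.06 (−0.32 to 0.21). These intervals are wide for Nr4a3, Egr3, Fosb, Egr1 and Fos, and a p that misses the threshold does not show that the drugs act alike.

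The genes whose levels followed each member most closely over the 9 libraries were sought among 14794 genes, by the root-mean-square (RMS) difference of centred log2 CPM; the points share libraries and depth, and the measure is a description. For Nr4a2 they included Sypl (0.06) and Qk (0.07), and for Nr4a1 they were Tmem39b (0.07), Glmn (0.08) and A730017C20Rik (0.09). For Nr4a3, whose own level varied most, the nearest were the non-coding transcripts A330076H08Rik (0.43), C230004F18Rik (0.43) and Snhg11 (0.47). Divided by the SD of the member itself, the RMS of the nearest gene was 0.186 for Nr4a2, 0.281 for Nr4a1, 0.434 for Nr4a3 and 0.499 for Fos. Egr1 was followed by Gm26397 (0.15), Trim59 (0.16) and Dusp1 (0.21), of which Dusp1 encodes a MAP kinase phosphatase and is itself an immediate early gene. Fos was followed by Tpt1, Gm22154 and Cyr61 (0.23 each), Junb by Gm7936 (0.05), Gm12350 (0.06) and Cbx3 (0.06), and Arc by Iba57 (0.07), Harbi1 (0.08) and Slc22a4 (0.08).

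Other immediate early transcription factors went both ways. Of 18 tested, 4 rose, 3 fell and 11 did not pass after cisplatin, and 5 rose, 4 fell and 9 did not pass after oxaliplatin. Of all genes tested, 15.8% were higher and 22.9% lower after cisplatin, and 17.5% and 24.1% after oxaliplatin. The medians of the list were 0.04 and 0.03, near those of all genes. Per1, a clock gene that CREB also induces, fell from 18.8 ± 3.77 CPM (SD, n = 3) with vehicle to 9.07 ± 0.781 after cisplatin (log2 fold change −1.06, adjusted p = 0.000262) and 10.2 ± 1.95 after oxaliplatin (−0.90, adjusted p = 0.000633). Jun, the main partner of FOS, fell by 0.29 after cisplatin (adjusted p = 0.00109) and by 0.34 after oxaliplatin (adjusted p = 0.000362), and Crem, a CREB relative with repressor isoforms, by 0.36 (adjusted p = 0.00498) and 0.46 (adjusted p = 0.000969). With library totals neither Jun (−0.00 and −0.04; adjusted p = 0.987 and 0.842) nor Crem (−0.07 and −0.16; adjusted p = 0.748 and 0.407) passed; relative to the shifted medians Jun stood at −0.30 and −0.34 and Crem at −0.36 and −0.46. Ier5 rose by 0.53 after cisplatin (adjusted p = 0.00389) and Jund by 0.31 after oxaliplatin (adjusted p = 0.00183), the latter not once each library's trend with gene GC content and length was removed (0.13, adjusted p = 0.0679). With that trend removed the list had 2 higher and 3 lower after cisplatin and 0 higher and 4 lower after oxaliplatin, and with library totals 5 higher and 1 lower, and 8 higher and 1 lower. The number of this list that rose thus changed with how libraries were adjusted. Of all 17348 genes, library totals gave 5987 higher and 917 lower after cisplatin, and 6408 and 996 after oxaliplatin. The trend removed gave 2476 and 3424, and 2534 and 3427. Without vehicle library 2, of 17711 genes, 3401 were higher and 3908 lower after cisplatin, and 3619 and 4078 after oxaliplatin. These counts also stand beside those of the lists below.

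Of 20 feedback regulators, which are induced alongside immediate early genes and restrain the same signals, 1 rose, 4 fell and 15 did not pass after cisplatin, and 3 rose, 6 fell and 11 did not pass after oxaliplatin. The shares of all genes tested were 15.8% higher and 22.9% lower after cisplatin, and 17.5% and 24.1% after oxaliplatin. Spry4, an inhibitor of the ERK pathway, fell by 0.49 (adjusted p = 0.00100) and by 0.59 (adjusted p = 0.000268), and Dusp5, a nuclear ERK phosphatase, by 0.32 (adjusted p = 0.0138) and by 0.44 (adjusted p = 0.00224). Socs3, a brake on cytokine signalling, rose by 0.55 after cisplatin (adjusted p = 0.00462), and Gadd45b by 0.44 after oxaliplatin (adjusted p = 0.00549). With library totals no member of this list was lower in either comparison and 6 were higher in each, under a scaling that shifts all genes upward. Spry4 (−0.21 and −0.30) and Dusp5 (−0.03 and −0.13) were then not called, but relative to the shifted medians they stood at −0.50 and −0.61, and −0.32 and −0.44. Without vehicle library 1 or cisplatin library 1 the Dusp5 fall after cisplatin did not pass either (adjusted p = 0.0832 and 0.0534). With the GC and length trend removed, Gadd45b after oxaliplatin did not pass (0.22, adjusted p = 0.113). Without vehicle library 2 the list had 3 higher and 3 lower after cisplatin and 5 higher and 6 lower after oxaliplatin.

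Of 18 effectors induced by activity or growth factors, 5 rose, 2 fell and 11 did not pass after cisplatin, and 4 rose, 2 fell and 12 did not pass after oxaliplatin. Beside them, 15.8% of all genes tested were higher and 22.9% lower after cisplatin, and 17.5% and 24.1% after oxaliplatin. Plk2, a kinase that acts at synapses, went from 42.6 ± 1.75 CPM with vehicle to 53.3 ± 1.88 after cisplatin (log2 fold change 0.32, adjusted p = 0.000720) and 54.3 ± 2.25 after oxaliplatin (0.35, adjusted p = 0.000390). Bdnf, a neurotrophin of sensory neurons, rose after cisplatin from 40.7 ± 1.49 to 51.2 ± 4.09 CPM (0.33, adjusted p = 0.00150), and its difference between the drugs was 0.39 (0.26 to 0.52), which did not pass over all genes (adjusted p = 0.151). Homer1, a postsynaptic scaffold, fell by 0.34 (adjusted p = 0.00195) and by 0.47 (adjusted p = 0.000231), yet with the GC and length trend removed it stood at 0.12 (adjusted p = 0.0669) and 0.09 (adjusted p = 0.182), and with library totals at −0.05 (adjusted p = 0.797) and −0.17 (adjusted p = 0.359), or −0.34 and −0.47 relative to the shifted medians. With library totals, the scaling that shifts all genes upward, 10 effectors were higher and none lower in each comparison. Without vehicle library 2 there were 7 higher and 1 lower, and 5 higher and 3 lower. With the trend removed 5 were higher and 1 lower after cisplatin, and 2 higher and 1 lower after oxaliplatin.

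Many of the upstream genes fell: of 25 kinases, coactivators and transcription factors that drive immediate early genes, 1 rose, 17 fell and 7 did not pass after cisplatin, and 1 rose, 16 fell and 8 did not pass after oxaliplatin, with medians of −0.23 and −0.30. Over all genes tested 22.9% and 24.1% were lower. Ep300, an acetyltransferase that CREB recruits, went from 60.8 ± 6.81 CPM with vehicle to 30.2 ± 1.16 after cisplatin (−1.02, adjusted p = 1.71e-05) and 28.8 ± 2.98 after oxaliplatin (−1.08, adjusted p = 7.62e-06). Its close relative Crebbp fell by 0.95 after cisplatin (adjusted p = 0.000121). Camk2a, a calcium-dependent kinase, fell by 1.03 after either drug (adjusted p = 7.35e-05 and 5.55e-05), and Mef2d, a calcium-responsive factor, by 0.84 (adjusted p = 7.46e-05) and 0.83 (adjusted p = 6.14e-05). Ep300, Camk2a and Mef2d passed in the same direction in both comparisons under every alternative run. Mef2a fell by 0.50 after oxaliplatin (adjusted p = 7.2e-05), not with library totals (−0.20, adjusted p = 0.299, or −0.50 relative to the shifted median) nor with the trend removed (−0.06, adjusted p = 0.294). With library totals the list had 3 higher and 7 lower after cisplatin and 3 higher and 8 lower after oxaliplatin, and with the trend removed 5 and 13, and 4 and 14.

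Of 7 tested NR4A partners and target genes, 2 rose, 1 fell and 4 did not pass in each comparison. Over all genes tested, 15.8% were higher and 22.9% lower after cisplatin, and 17.5% and 24.1% after oxaliplatin. Ret, the GDNF family receptor and a target of NURR1 in dopamine neurons, fell from 847 ± 56.0 CPM to 576 ± 49.2 after cisplatin (−0.56, adjusted p = 0.000785) and 611 ± 64.2 after oxaliplatin (−0.47, adjusted p = 0.00204). With library totals Ret stood at −0.28 (adjusted p = 0.205) and −0.18 (adjusted p = 0.423), or −0.57 and −0.48 relative to the shifted medians. Th, the dopamine-synthesis enzyme and another NURR1 target, was higher after oxaliplatin (0.26, adjusted p = 0.0282), though not without vehicle library 3 or oxaliplatin library 3 (adjusted p = 0.0971 and 0.0883) or with the trend removed (0.08, adjusted p = 0.469). Rxra, which pairs with NR4A1 and NR4A2, was higher after both drugs (0.20, adjusted p = 0.0480, and 0.23, adjusted p = 0.0251), and Rxrg after cisplatin (0.28, adjusted p = 0.0289). The Rxra call was lost without vehicle library 1 for both drugs (adjusted p = 0.0906 and 0.0541), and for cisplatin also without vehicle library 2 or any 1 cisplatin library, and the Rxrg call without vehicle library 1, cisplatin library 1 or cisplatin library 2 (adjusted p = 0.0955, 0.109 and 0.0753). No gene of these 5 lists passed between cisplatin and oxaliplatin (0 called in each list with edgeR; 4, 2, 1, 1 and 0 at an unadjusted p under 0.05, in the order given).

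Over 21 alternative settings, Nr4a3 passed in the lower direction in all 21 for either drug, and Nr4a2 in all 21 for oxaliplatin and in 20 for cisplatin. Egr3 passed in the 20 settings that could test it for oxaliplatin. Egr1 kept its call in 14 for cisplatin and 16 for oxaliplatin, and Nr4a1 in 15 and 16. Some of these settings bear little on a call. The looser threshold of 0.1 cannot lose one, and some left-out libraries belong to the drug group that is not compared.

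**Figure D5:**
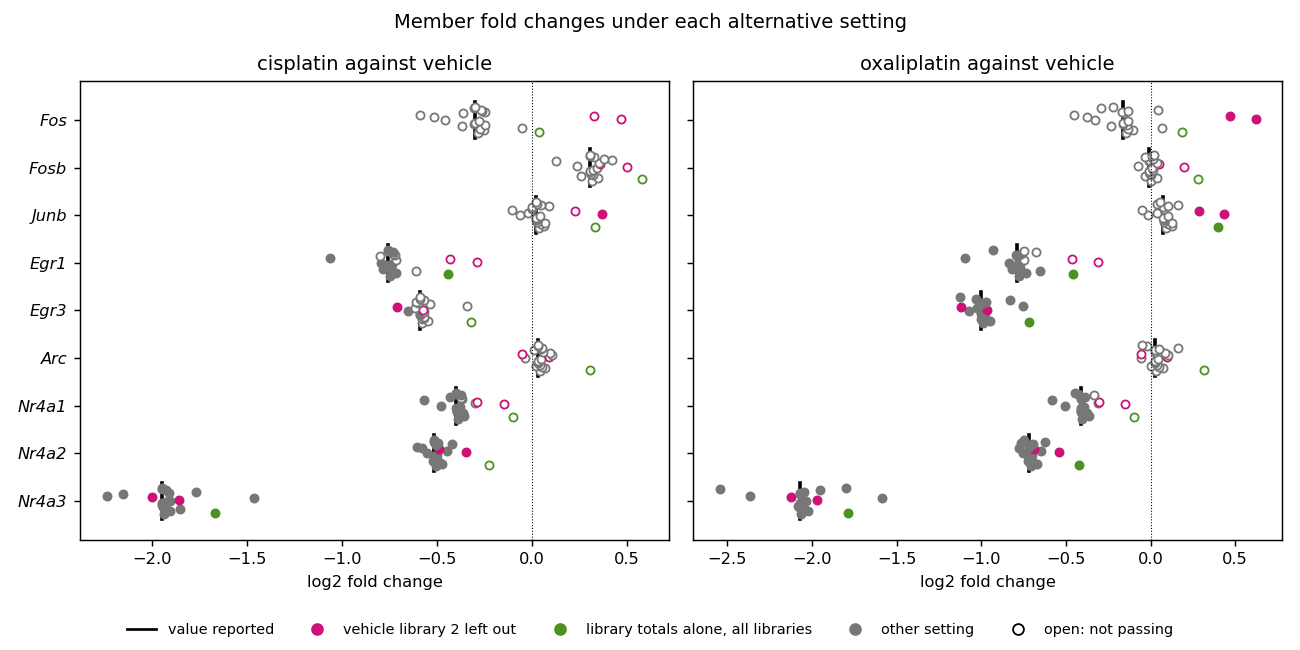
Log2 fold change of the 9 tested genes under each alternative setting, for cisplatin (left) and oxaliplatin (right) against vehicle; the black bar is the value reported, filled points pass an adjusted p under 0.05 (0.1 in the setting that uses that threshold), and colours mark the settings without vehicle library 2 and with library totals. Nr4a3 stays at or below −1.46 on the log2 scale throughout, and Nr4a2 below 0. Fos crosses 0 when vehicle library 2 is left out, and also with library totals when it is kept.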

How the data were processed

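Whole-ganglion RNA of 9 pooled libraries (3 per group) was analysed from the counts deposited by the authors, which are raw whole-number reads per gene symbol with no normalization, per the file contents. Per the submitters' processing notes, STAR, SAMtools and HTSeq were used on the mm10 (GRCm38) mouse build. Gene models, strand handling and filters were not given in the sources used here. Reads assigned to no gene (42.8 to 74.5% of recorded reads) were left out. Nothing in the labels pairs libraries or names a batch; each library is a separate pool, and p-values measure the spread between pools. The most alike libraries of a group differed beyond sampling noise (chi-square per degree of freedom of at least 3.95).

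All 9 libraries were fitted together in edgeR 4.0.16 (limma 3.58.1, R 4.3.3), with 1 term per group, TMM scaling, filterByExpr, the quasi-likelihood F test and Benjamini-Hochberg adjustment over 17348 genes; genes under 0.05 were called. SE divides the absolute log2 fold change by the root of F. A prior count of 2 entered only the log2 CPM used for the GC and length trend and for the genes nearest in pattern. Levels are TMM-scaled CPM; per-length levels divide by GENCODE M21 exon length (91.6% of symbols matched). Intervals are at 95% confidence, and floors (3 reads) cover counting error only.

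All 10 genes were named in every comparison; of each other list, at most the 4 of smallest p were candidates for naming, and for each member of at least 1 CPM the 3 genes nearest in pattern, of which 1 is not reported here. The members and lists were chosen with earlier results of these data known. Alternatives were DESeq2 1.42.0, limma-voom, other scalings and filters, a replicate block, pairwise fits, left-out libraries and an offset for GC content and exon length (mgcv 1.9.3).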

Additional observations from a re-analysis of the deposited data

How the results depend on the processing

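The number of members called after cisplatin was 4, and 2 with library totals in place of TMM factors; after oxaliplatin it was 5 and stayed within 1.5 times of that outside the left-out libraries. The members were not the same throughout. With library totals the 5 for oxaliplatin were 4 lower and 1 higher (Junb, 0.40, adjusted p = 0.0233), and Nr4a1 was not called (adjusted p = 0.604). Leaving out 1 library at a time gave 2 to 4 members for cisplatin (2 without vehicle library 1, cisplatin library 1 or cisplatin library 2; 3 without vehicle library 2) and 3 to 5 for oxaliplatin (3 without vehicle library 1 or oxaliplatin library 1). Without vehicle library 2 the 5 called for oxaliplatin were 3 lower (Egr3, Nr4a2, Nr4a3) and 2 higher (Fos, Junb). The direction of Fos after oxaliplatin was reversed there, at 0.47 (adjusted p = 0.0497), and at 0.62 (adjusted p = 0.0152) when library totals were also used; the cause was not tested. Over the left-out libraries that value of Fos ranged from −0.45 to 0.47. The library-total setting without vehicle library 2 and the offset for GC content and exon length (5 members called for each drug) were chosen after seeing the data. No member was called between the drugs in any of 20 alternatives. Library totals moved the median of all genes to 0.29 for cisplatin and 0.30 for oxaliplatin, and the split of all genes called to 5987 higher and 917 lower, and 6408 higher and 996 lower, beside 2744 and 3971, and 3043 and 4178, with TMM. All genes called between the drugs numbered 2, and 68 with library totals, 16 without a filter, 15 with DESeq2 and 0 with the replicate block. A minimum of 1 CPM in 3 libraries left Egr3 and Fosb untested. The replicate block gave 4, 5 and 0 members called; the numbers do not pair libraries (correlations of same-numbered libraries −0.21 to 0.20; 4 of 9 libraries correlated best with their own number). Npas4, Fosb, Egr3 and Nr4a3 had the fewest reads, 1 to 86 in a library, so counting error weighs most on them.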
